A study of Homo sapiens with 16 samples.

Results

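The genes described here are 10 genes of the nuclear lamina and the HMGB family, a group that includes commonly used markers of senescence. They are LMNB1, LMNB2, LMNA, LBR, TMPO, EMD, BANF1, HMGB1, HMGB2 and HMGB3. They were chosen by gene symbol, and all 10 were listed in each of the 4 authors' deposited tables, out of 23396 genes listed in any of them. The tables compare poly(A) RNA-seq libraries of U2OS, a single human osteosarcoma line with intact p53. Its cells received either of 2 siRNAs, a control one (siControl) or one that targets RFX7, a transcription factor (siRFX7), and were then given 10 µM Nutlin-3a or its solvent DMSO for 24 h. Nutlin-3a occupies the p53 pocket of MDM2, so that p53 is no longer degraded. This made 4 groups of 4 libraries: siControl with DMSO, siControl with Nutlin-3a, siRFX7 with DMSO and siRFX7 with Nutlin-3a. All groups were transfected cells of the same line, and those without Nutlin-3a still received the solvent.

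The lamina is a mesh of lamin filaments under the inner nuclear membrane. B-type lamins (LMNB1, LMNB2) stay attached to that membrane, and the A-type lamins (LMNA) also occur inside the nucleus. Membrane proteins such as LBR, emerin and several, but not all, of the LAP2 proteins tether lamins and chromatin to the membrane. HMGB proteins bend DNA and loosen its packing, and HMGB1 can also leave the cell as an alarm signal. Loss of lamin B1 and of HMGB2 expression and the exit of HMGB1 from the nucleus are commonly used to recognise senescent cells, whose proliferation has stopped for good and often through p53.

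Several of these genes are known to be transcribed with the cell cycle, so the sequence before their start sites is of interest, and 3 words from cell cycle promoters were looked for there. CCAAT is the word bound by the factor NF-Y, TTTCCCG is a word of the kind bound by E2F factors, and TTTGAA is a short form of the CHR element bound by the DREAM complex. Of the 10 genes, 9 had promoter windows in the RefSeq table (GRCh38.p14; 250 bases before to 50 after each start), 16 windows in all; HMGB2 had none. On either strand CCAAT stood in 8 of these 16 windows (LMNB1, LMNA, TMPO, EMD, HMGB1 and HMGB3) and in 34.61% of all 35116 windows in the table. The TMPO windows overlap and hold the same CCAAT sites, so the 8 are not all separate. The LMNB1 match lies before a second start, within the gene's own exons. TTTCCCG stood in 3 of the 16 (LMNB1, LMNA and HMGB1) and in 4.286% of all windows, and TTTGAA in 3 of the 16 (LMNB2, HMGB1 and HMGB3) and in 15.16% of all. The words TTTCGCG and also TTTGCCG and TTTGGCG, variants of the E2F word, were in none of the 16 windows. Nor was GTTGCCA, a form of the X-box word of RFX factors. Of all windows, 1.318%, 1.637% and 1.917% held the E2F variants, in that order, and 4.081% held the X-box word. At shares this low, absence from 16 windows says little about these genes. All matches given here are of letters and not measured binding. The stretches printed here run 5′ to 3′ with the words in capitals. In them the gene that fell most with Nutlin-3a (LMNB1) and the gene that rose (LMNA) both hold TTTCCCG close to a start. Both genes have other windows without it, and which starts these cells use is not known here. HMGB1 and HMGB3 hold several copies of CCAAT. Only bases outside the gene's own GENCODE 29 exons are shown. They lie at chr5:126776373-126776622 (plus strand, LMNB1), chr1:156082323-156082572 (plus strand, LMNA), chr13:30465966-30466186 (minus strand, HMGB1) and chrX:150983085-150983285 (plus strand, HMGB3).
LMNB1: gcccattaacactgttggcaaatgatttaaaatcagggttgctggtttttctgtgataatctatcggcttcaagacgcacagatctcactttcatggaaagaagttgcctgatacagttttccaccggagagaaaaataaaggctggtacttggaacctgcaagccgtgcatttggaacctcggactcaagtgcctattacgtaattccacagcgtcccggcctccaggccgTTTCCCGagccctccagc
LMNA: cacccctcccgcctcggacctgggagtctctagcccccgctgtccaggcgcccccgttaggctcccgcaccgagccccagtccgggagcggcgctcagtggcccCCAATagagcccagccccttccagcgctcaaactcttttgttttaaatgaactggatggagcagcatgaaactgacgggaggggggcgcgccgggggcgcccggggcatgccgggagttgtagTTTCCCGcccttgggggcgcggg
HMGB1: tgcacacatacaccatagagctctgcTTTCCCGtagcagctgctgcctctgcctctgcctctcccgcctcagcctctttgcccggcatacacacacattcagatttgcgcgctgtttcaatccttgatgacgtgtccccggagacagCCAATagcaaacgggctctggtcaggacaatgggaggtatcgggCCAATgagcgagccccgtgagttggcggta
HMGB3: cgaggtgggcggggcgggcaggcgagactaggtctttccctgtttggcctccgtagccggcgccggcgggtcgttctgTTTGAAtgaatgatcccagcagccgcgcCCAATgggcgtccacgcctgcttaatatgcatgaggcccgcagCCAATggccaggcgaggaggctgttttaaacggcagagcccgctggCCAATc

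The tables hold comparisons of 2 groups and no value of a single library, so the errors given are the authors' standard errors (SE) and the spread over single libraries is not shown. Whether the 4 libraries of a group came from separate cultures is not stated, so p-values may measure technical spread only. The tables listed between 19511 and 23353 genes, and their base means (mean normalised counts) summed to between 27946376 and 35311111. RFX7 was at 18.6% of the siControl level with its siRNA under DMSO (log2 fold change -2.42 ± 0.07 SE in the authors' deposited table). CDKN1A, which encodes the p53-induced cell cycle inhibitor p21, rose with Nutlin-3a: the authors' deposited tables gave 3.24 ± 0.04 (SE) for siControl cells and 2.98 ± 0.04 for siRFX7 cells. CDKN2A, which encodes the senescence marker p16, was in none of the 4 authors' deposited tables. Of 9 osteoblast lineage genes 7 were listed, with COL1A1 at a base mean of 39039 and SPARC at 31574 in the authors' deposited table for Nutlin-3a in siControl, while SP7 and IBSP were not in the tables. Blood and vessel markers were at base means of at most 5.213 there (PTPRC; PECAM1 2.656 and CD68 2.572, CD3E not in the authors' deposited tables), and the epithelial markers EPCAM and KRT14 at 190.8 and 61.72. Since the RNA came from whole cultures, fewer cells of a kind and less RNA per cell cannot be told apart in any value here.

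With Nutlin-3a, 9 of the 10 genes fell and LMNA rose, in siControl and again in siRFX7. The falls were deepest for LMNB1, HMGB2 and TMPO, which kept between 43.5% and 53.6% of their DMSO level, and slight for EMD and BANF1. All 10 passed an adjusted p of 0.05 in both authors' deposited tables, against 37.9% of all genes in siControl (19.6% lower, 18.3% higher) and 39.1% in siRFX7 (20.3% lower, 18.7% higher). Because these genes are abundant, genes with base means from 1000 up are a closer background, and of these 41.1% fell and 22.4% rose in siControl, and 42% fell and 21.7% rose in siRFX7. The median log2 fold change of the 10 genes was -0.46 in siControl and -0.53 in siRFX7, beside -0.03 in both for all genes with base means from 100 up.

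**Figure D1:**
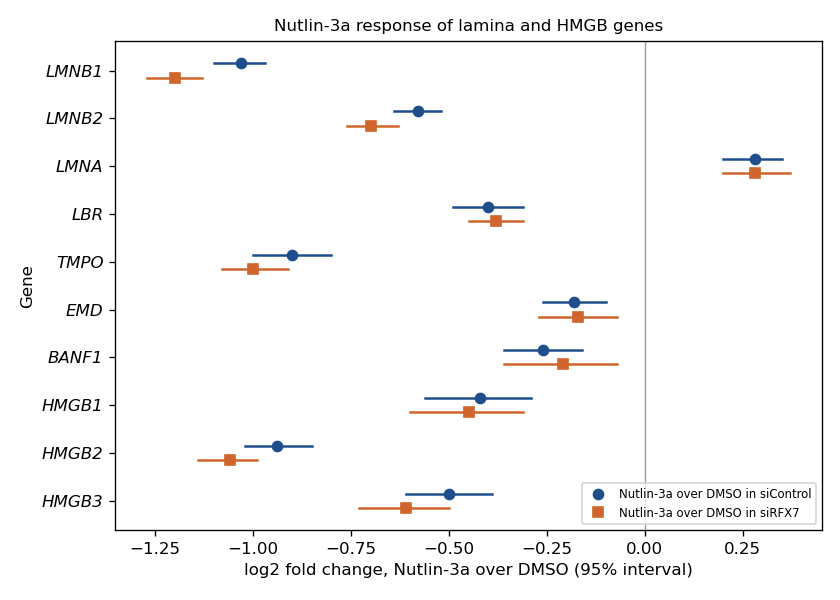
Log2 fold change of each gene with Nutlin-3a over DMSO (x axis) in siControl (blue circles) and siRFX7 (orange squares), with 95% intervals from the authors' standard errors; filled symbols passed an adjusted p of 0.05. LMNB1, HMGB2 and TMPO lie lowest, between -0.90 and -1.20, and LMNA alone lies above 0, at 0.28 in both.

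LMNB1 (ENSG00000113368, chromosome 5, 126776623 to 126837020, plus strand, GENCODE 29 on GRCh38), which encodes lamin B1, fell most. Its mean normalised count, solved from the base mean and fold change in the authors' deposited tables, went from 12228 under DMSO to 5969 with Nutlin-3a in siControl. In siRFX7 it went from 8571 to 3733; the tables were normalised separately, so counts compare within a pair only. The log2 fold changes were -1.03 ± 0.03 (SE, adjusted p 1.12e-194) and -1.20 ± 0.03 (SE, adjusted p 1.56e-254) in the authors' deposited tables, so 48.8% (95% interval 46.6 to 51.2) and 43.5% (41.5 to 45.7) of the DMSO level were left. Of the 7050 genes in siControl with base means from 1000 up, 47 had a lower log2 fold change, or 0.667%. LMNB2 (ENSG00000176619, chromosome 19, 2427638 to 2456996, minus strand), the gene of lamin B2, fell less, to 66.9% (64.2 to 69.8) of its DMSO level in siControl and 61.8% (59.1 to 64.6) in siRFX7. Its log2 fold changes were -0.58 ± 0.03 (SE) and -0.70 ± 0.03 in the authors' deposited tables. The intervals of LMNB1 and LMNB2 did not overlap in either. LMNB2 shares 257 exon bases (4.73% of its own) with TIMM13 on the same strand, which fell by 0.30 and 0.41 in the authors' deposited tables; its part in the LMNB2 values was not tested.

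LMNA (ENSG00000160789, chromosome 1, 156082573 to 156140089, plus strand), the gene of lamins A and C, went the other way. Its mean normalised count was 16730 under DMSO and 20282 with Nutlin-3a in siControl, and 12072 and 14705 in siRFX7. The log2 fold change was 0.28 ± 0.04 (SE, adjusted p 7.12e-12) in siControl and 0.28 ± 0.05 (SE, adjusted p 3e-09) in siRFX7 in the authors' deposited tables, a rise to 121% (115 to 128) and 122% (115 to 130). The level of LMNB1 mRNA relative to LMNA thus fell. LMNA had the higher mean count already under DMSO, and with counts divided by the kilobases of merged exons of all GENCODE 29 transcripts of each gene, LMNB1 stood at 1.41 times LMNA under DMSO and at 0.566 times LMNA with Nutlin-3a in siControl. In siRFX7 the same ratio of levels went from 1.37 to 0.488. LMNB2 per kilobase went from 1.18 to 0.651 times LMNA in siControl and from 1.23 to 0.624 times in siRFX7. The size of these ratios, and whether they lie above 1, depends on the exon length used, while their relative fall does not; no error over libraries is known for them.

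Among the other lamina genes, TMPO (ENSG00000120802, chromosome 12, 98515512 to 98550379, plus strand), which encodes the LAP2 proteins, fell most. Its mean normalised count went from 7917 to 4243 in siControl and from 5364 to 2684 in siRFX7. This left 53.6% (50.1 to 57.4) and 50% (47.1 to 53.1), with log2 fold changes of -0.90 ± 0.05 (SE, adjusted p 8.28e-71) and -1.0 ± 0.04 (SE, adjusted p 7.57e-114) in the authors' deposited tables. TMPO-AS1, transcribed from the opposite strand and sharing 713 exon bases (8.3% of those of TMPO), fell by 1.43 ± 0.14 (SE) and 1.21 ± 0.16 on the log2 scale, per the authors' deposited tables. At a base mean of 145.2 against 6080 for TMPO in siControl, it held few of the counts; the strand setting of the counting is not given in the sources used here. LBR (ENSG00000143815, chromosome 1, 225401502 to 225428925, minus strand), the lamin B receptor, which is also a sterol reductase, fell from 7158 to 5434 in siControl and from 7288 to 5611 in siRFX7. Its log2 fold changes of -0.40 ± 0.05 (SE) and -0.38 ± 0.04 in the authors' deposited tables left 75.9% (71.4 to 80.8) and 77% (73.4 to 80.8). EMD (ENSG00000102119, chromosome X, 154379197 to 154381523, plus strand), the gene of emerin, moved least, by -0.18 ± 0.04 (SE, adjusted p 4.09e-05) and -0.17 ± 0.05 (SE, adjusted p 0.00243) in the authors' deposited tables, from 4179 to 3681 and from 2797 to 2482 normalised counts. BANF1 (ENSG00000175334, chromosome 11, 66002079 to 66004149, plus strand) encodes BAF, a small protein that joins DNA to emerin and lamins. It fell from 1394 to 1163 in siControl and from 1631 to 1405 in siRFX7. Its log2 fold changes were -0.26 ± 0.05 (SE, adjusted p 1.52e-06) and -0.21 ± 0.07 (SE, adjusted p 0.00915) in the authors' deposited tables, and the second no longer passed when all standard errors were made 25% larger (adjusted p 0.0543). When a size of at least 0.25 was also asked for, EMD was called in neither and BANF1 in siControl only.

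In the HMGB family the fall was deepest for HMGB2 (ENSG00000164104, chromosome 4, 173331695 to 173335125, minus strand), a chromatin protein most abundant in dividing cells. Its mean normalised count went from 8173 to 4271 in siControl and from 6396 to 3060 in siRFX7. Log2 fold changes were -0.94 ± 0.04 (SE, adjusted p 2.75e-103) and -1.06 ± 0.04 (SE, adjusted p 4.89e-158) in the authors' deposited tables, which left 52.3% (49.3 to 55.4) and 47.8% (45.4 to 50.5). HMGB3 (ENSG00000029993, chromosome X, 150980509 to 150990775, plus strand), a family member best known from blood and other stem cells, fell from 1610 to 1138 and from 1093 to 715.4. Its log2 fold changes were -0.50 ± 0.05 (SE) and -0.61 ± 0.06 in the authors' deposited tables. HMGB1 (ENSG00000189403, chromosome 13, 30456704 to 30617597, minus strand) fell from 2396 to 1787 and from 1986 to 1451, with log2 fold changes of -0.42 ± 0.07 (SE) and -0.45 ± 0.07 in the authors' deposited tables. The intervals of HMGB2 lay below those of HMGB1 and HMGB3 in both. Per kilobase of exon, HMGB2 stood at 9.49 times HMGB1 under DMSO and at 6.65 times with Nutlin-3a in siControl, and at 8.96 and 5.87 times in siRFX7. The size of these ratios depends on the exon length used. It also depends on how reads shared between HMGB1 and its pseudogenes were counted, which is not given.

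**Figure D2:**
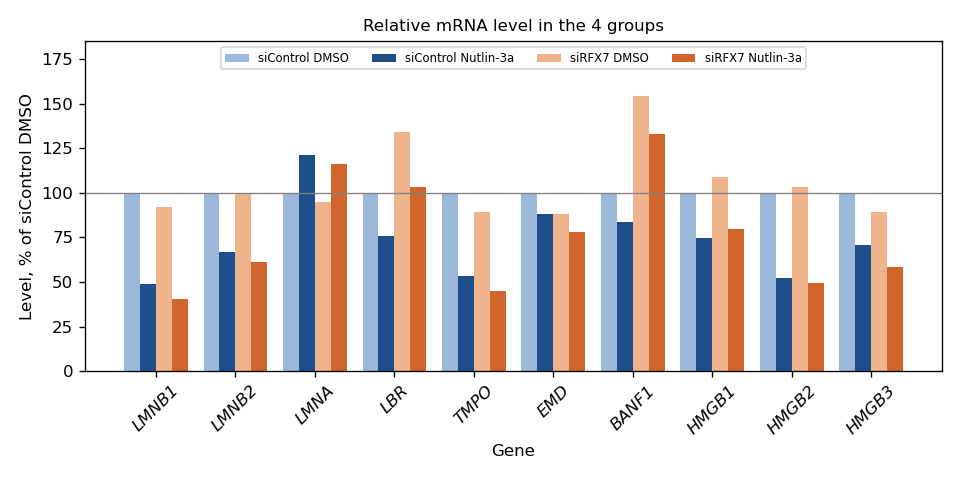
Level of each gene in the 4 groups as a percent of the siControl DMSO group (bars from 0; y axis in percent), chained from the authors' fold changes, with no error bar since no single library is given. Nutlin-3a bars are below their DMSO bars for every gene except LMNA, and under DMSO the siRFX7 bars of BANF1 (154%) and LBR (134%) stand above those of the other genes.

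HMGB1 needs more care than the other genes, because processed pseudogenes hold close copies of its sequence. Of the 50-base words of its transcript, 15.45% also occur in transcripts of other genes in GENCODE 29, against 7.052% for BANF1, 3.817% for HMGB3, 1.503% for TMPO, 0.5435% for HMGB2 and 0 for LMNB1, LMNB2, LMNA, LBR and EMD. HMGB1P6 had a base mean of 1575 and HMGB1P5 of 545.5 beside 2091 for HMGB1 in the authors' deposited table for Nutlin-3a in siControl. How reads that fit several copies were counted is not given, so the values of these genes are uncertain. With Nutlin-3a all 3 fell. HMGB1P6 fell by 0.55 ± 0.13 (SE) in siControl and 0.53 ± 0.06 in siRFX7, and HMGB1P5 by 0.52 ± 0.07 and 0.62 ± 0.09, in the authors' deposited tables. The summed counts of all 3 fell by 0.48 and 0.50 on the log2 scale. Of 19 pseudogenes and antisense genes named after one of the 10 genes and listed in any table, 7 reached a base mean of 100 in siControl, and all 7 fell there with Nutlin-3a. These included HMGB2P1 (-1.03 ± 0.10 SE), TMPOP2 (-1.05 ± 0.13) and HMGB3P6 (-0.48 ± 0.08) in the authors' deposited table. Of all genes 19.6% fell in siControl, and 41.1% of those with base means from 1000 up. The share for base means from 100 up was not computed. Several of the 7 share 50-base words with the genes they are named after, so they are not all separate observations. In siRFX7, BANF1P3 did not pass with Nutlin-3a (-0.09 ± 0.13 SE, adjusted p 0.647, in the authors' deposited table).

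With siRFX7 these genes moved in both directions. LMNB1, HMGB2 and TMPO moved less than with Nutlin-3a, LBR and EMD about as far, and BANF1 farther. The siRFX7 cells were compared with siControl cells only, so loss of RFX7 and other effects of either siRNA cannot be told apart. Under DMSO, 2 rose (LBR, BANF1), 4 fell (LMNB1, TMPO, EMD, HMGB3) and 4 did not pass, against 37.4% of all genes called, 19.9% higher and 17.5% lower. Under Nutlin-3a, LBR and BANF1 again rose and 5 fell, the same 4 and LMNB2, against 32.6% of all genes called, 17.2% higher and 15.4% lower. Of genes with base means from 1000 up, 55.9% were called under DMSO (35.6% higher, 20.3% lower) and 52.7% under Nutlin-3a (33.5% higher, 19.2% lower), beside 6 and 7 of these 10. The median of the 10 was -0.04 under DMSO and -0.10 with Nutlin-3a, beside 0.01 in both for genes with base means from 100 up.

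**Figure D3:**
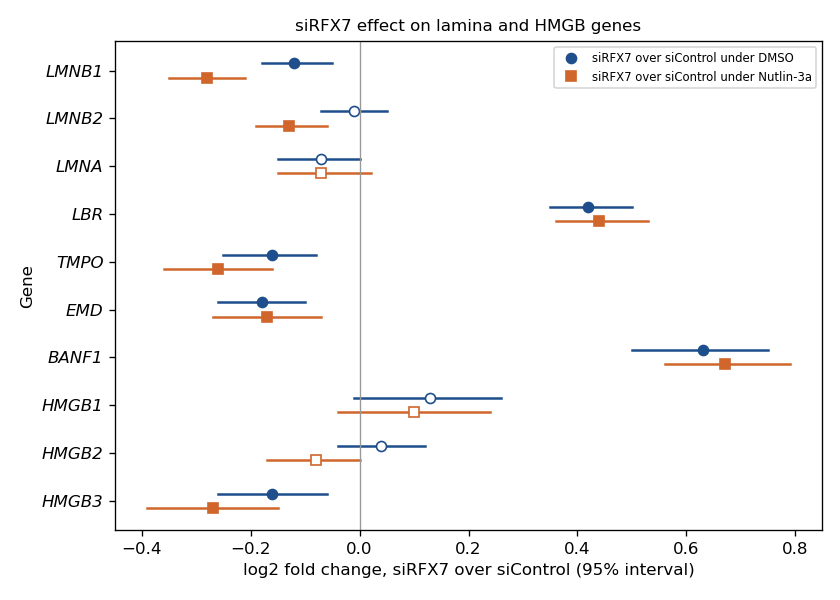
Log2 fold change of each gene with siRFX7 over siControl (x axis) under DMSO (blue circles) and Nutlin-3a (orange squares), with 95% intervals; filled symbols passed an adjusted p of 0.05. BANF1 and LBR lie to the right, between 0.42 and 0.67, and every other gene lies between -0.28 and 0.13.

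BANF1 rose most of the 10 genes. Solved within each of the authors' deposited tables, its mean normalised count was 1251 in siControl and 1929 in siRFX7 under DMSO, and 982.3 and 1568 under Nutlin-3a. The log2 fold changes were 0.63 ± 0.06 (SE, adjusted p 1.93e-20) and 0.67 ± 0.06 (SE, adjusted p 3.57e-28) in the authors' deposited tables, or 154% (141 to 168) and 160% (147 to 173) of the control level. Of genes with base means from 1000 up, 1.37% rose more under DMSO and 0.945% under Nutlin-3a. Its pseudogene BANF1P3 also rose, by 0.47 ± 0.11 (SE) under DMSO and 0.90 ± 0.15 with Nutlin-3a, per the authors' deposited tables, and the sum of both rose by 0.60 and 0.71. EIF1AD, a gene on the opposite strand that shares 98 exon bases (5.96% of those of BANF1), rose by 0.33 ± 0.05 (SE) under DMSO and 0.24 ± 0.05 with Nutlin-3a, per the authors' deposited tables. The base mean of EIF1AD was 2066 beside 1590 for BANF1 under DMSO, and 1504 beside 1275 under Nutlin-3a. The part of these neighbours and copies in the BANF1 values was not tested.

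An earlier scan of these same fold changes had drawn attention to the 3′ UTR words GTATCTA, frequent in genes lower with siRFX7, and GACGTA, frequent in genes higher with it, so their presence is given as a description only. None of the 10 genes holds GTATCTA in a 3′ UTR of GENCODE 29, against 8.332% of 14823 protein-coding genes. BANF1 alone of the 10 holds GACGTA, found in 5.033% of those genes. The site begins at base 113 of the 377-base 3′ UTR of its transcript ENST00000312175.6, printed with the word in capitals since BANF1 was the member with the strongest rise.
BANF1 site: actcacctccGACGTActccggggtc
LBR, the other gene that rose, does not hold the word in its 3′ UTRs. Among genes named below for their siRFX7 values, CCNA2 (lower) holds GTATCTA and SYNE1 (higher) holds GACGTA. HMGA2, SYNE3 and SUN2 (higher) and HMGN3 (lower) hold neither word.

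LBR went from 6429 in siControl to 8617 in siRFX7 under DMSO and from 4597 to 6256 under Nutlin-3a. The log2 fold changes were 0.42 ± 0.04 (SE, adjusted p 4.84e-27) and 0.44 ± 0.04 (SE, adjusted p 3.67e-22) in the authors' deposited tables, or 134% (127 to 141) and 136% (128 to 144). Chained to siControl with DMSO, LBR stood at 75.9% with Nutlin-3a alone, 134% with siRFX7 alone and 103% with both. BANF1 stood at 83.4%, 154% and 133% in the same order. These values share the siControl DMSO libraries as their reference.

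The genes that fell with siRFX7 fell little. LMNB1 went from 10983 to 10134 under DMSO and from 5051 to 4162 under Nutlin-3a, with log2 fold changes of -0.12 ± 0.03 (SE, adjusted p 0.00176) and -0.28 ± 0.04 (SE, adjusted p 6.2e-13) in the authors' deposited tables. TMPO went from 7112 to 6344 and from 3589 to 2991, by -0.16 ± 0.04 (SE, adjusted p 0.000784) and -0.26 ± 0.05 (SE, adjusted p 2.95e-06) in the authors' deposited tables. HMGB3 had -0.16 ± 0.05 (SE, adjusted p 0.0056) and -0.27 ± 0.06 (SE, adjusted p 0.000105) in the authors' deposited tables. The control level left was 92.3% and 82.4% for LMNB1, 89.2% and 83.3% for TMPO, and 89.5% and 82.9% for HMGB3. EMD had -0.18 ± 0.04 (SE) under DMSO and -0.17 ± 0.05 with Nutlin-3a, per the authors' deposited tables. Its level was 88.1% of siControl DMSO with Nutlin-3a alone, 88% with siRFX7 alone and 78.2% with both. LMNB2 had -0.01 ± 0.03 (SE, adjusted p 0.795) under DMSO and -0.13 ± 0.03 (SE, adjusted p 0.00115) with Nutlin-3a, per the authors' deposited tables. When a size of at least 0.25 was also asked for, no gene was called lower under DMSO and 3 (LMNB1, TMPO, HMGB3) were under Nutlin-3a.

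LMNA, HMGB1 and HMGB2 did not pass with siRFX7 under either treatment. LMNA had -0.07 ± 0.04 (SE, 95% interval -0.15 to 0.00) under DMSO and -0.07 ± 0.04 (-0.15 to 0.02) with Nutlin-3a, per the authors' deposited tables. HMGB2 had 0.04 ± 0.04 (SE, -0.04 to 0.12) and -0.08 ± 0.04 (-0.17 to 0.00) in the same order in the authors' deposited tables. HMGB1 had 0.13 ± 0.07 (SE, adjusted p 0.139) and 0.10 ± 0.07 (SE, adjusted p 0.316) in the authors' deposited tables, but its pseudogenes were called in opposite directions. HMGB1P6 rose by 0.43 ± 0.06 (SE) under DMSO and by 0.45 ± 0.13 with Nutlin-3a, and HMGB1P5 had -0.38 ± 0.07 (SE) and -0.48 ± 0.09, in the authors' deposited tables. The sum of the 3 was higher by 0.20 under DMSO and 0.18 under Nutlin-3a, a value with no test. The part of reads shared between these copies in the HMGB1 values was not tested.

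**Figure D4:**
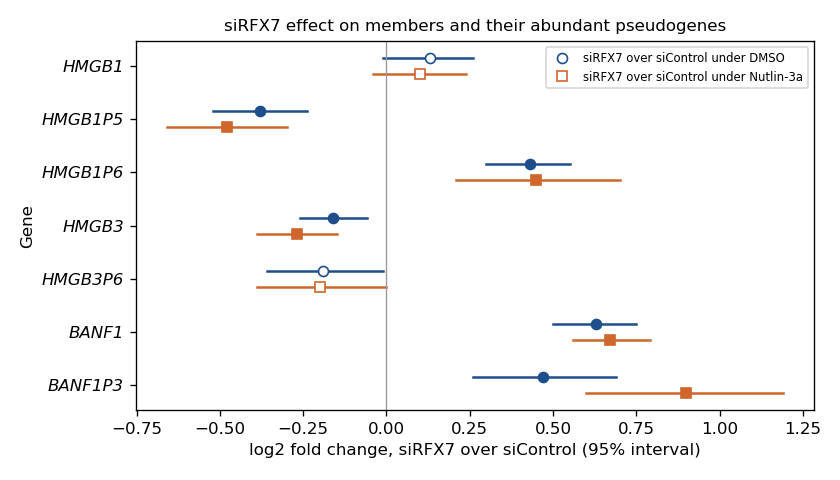
Log2 fold change with siRFX7 over siControl (x axis) of HMGB1, HMGB3 and BANF1 and their pseudogenes HMGB1P5, HMGB1P6, HMGB3P6 and BANF1P3, under DMSO (blue circles) and Nutlin-3a (orange squares), with 95% intervals; filled symbols passed an adjusted p of 0.05. HMGB1P5 lies to the left of 0 and HMGB1P6 to the right with HMGB1 between them, while BANF1 and BANF1P3 both lie to the right.

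Whether the response to Nutlin-3a differed with siRFX7 was tested by the difference of both responses, siRFX7 minus siControl, adjusted over 21339 genes. None of the 10 genes passed an adjusted p of 0.05 in this normal test of the DESeq2 estimates, against 0.937% of all genes (0.764% lower, 0.173% higher). At an unadjusted p under 0.05, 3 passed (LMNB1, LMNB2 and HMGB2), all with a deeper fall in siRFX7, against 6.32% of all genes in either direction and 3.85% lower. LMNB1 differed by -0.16 ± 0.05 (SE, 95% interval -0.26 to -0.07, adjusted p 0.075), and its adjusted p was 0.0486 when the adjustment covered only genes with base means from 100 up. LMNB2 differed by -0.12 ± 0.05 (SE, -0.20 to -0.03, adjusted p 0.392) and HMGB2 by -0.13 ± 0.06 (SE, -0.24 to -0.01, adjusted p 0.644). TMPO (-0.10, interval -0.23 to 0.03) and HMGB3 (-0.11, -0.27 to 0.05) had estimates of like size that did not pass. For LMNA (-0.11 to 0.12), LBR (-0.09 to 0.13), EMD (-0.12 to 0.14), BANF1 (-0.13 to 0.22) and HMGB1 (-0.22 to 0.16) the intervals spanned 0 with estimates of at most 0.05 in size.

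Proliferation genes moved with Nutlin-3a in the same direction as the 9 genes that fell. All 20 cell cycle genes of a list fell in both authors' deposited tables, with a median log2 fold change of -0.94 in siControl and -1.16 in siRFX7. Of genes with base means from 1000 up, 41.1% fell in siControl and 42% in siRFX7. The replication helicase gene MCM2 had -1.18 ± 0.04 (SE), E2F1 -1.17 ± 0.04 and the proliferation marker MKI67 -1.11 ± 0.06 in the authors' deposited table for siControl. With siRFX7 under DMSO, 5 of the 20 rose and 1, the cyclin gene CCNA2, fell (-0.51 ± 0.04 SE in the authors' deposited table), and under Nutlin-3a 1 rose and 12 fell. Beside these counts, 35.6% of genes with base means from 1000 up rose and 20.3% fell under DMSO. Under Nutlin-3a 33.5% of them rose and 19.2% fell. In the difference of responses 7 of the 20 were lower, with a median of -0.19, against 1.75% of genes with base means from 1000 up. The part of a smaller dividing fraction in the values of LMNB1, HMGB2 and the other genes was not tested. Over the 4 log2 fold changes, the 5 of 12747 genes nearest to LMNB1 were NDC80, H2AFX, PLK4, MCM4 and FEN1. NDC80, a kinetochore gene, lay 0.00613 away (Euclidean distance on the log2 scale) and had -1.03, -1.20, -0.12 and -0.28 in the authors' deposited tables, in the order Nutlin-3a in siControl, Nutlin-3a in siRFX7, siRFX7 under DMSO and siRFX7 under Nutlin-3a. The nearest to HMGB2 were ARHGAP11A, RFC3, CDK1, PIF1 and KIF4B, at distances of 0.03 to 0.054. CDK1, the mitotic kinase, had -0.91, -1.05, 0.03 and -0.10 in the authors' deposited tables, in that order.

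Other genes of the nuclear envelope and of chromatin are given by their counts, to be read beside the shares of all genes with base means from 1000 up: with Nutlin-3a 41.1% fell and 22.4% rose in siControl and 42% fell and 21.7% rose in siRFX7, and with siRFX7 35.6% rose and 20.3% fell under DMSO and 33.5% rose and 19.2% fell under Nutlin-3a. Nuclear pore genes fell nearly throughout with Nutlin-3a. Of 30 nuclear pore genes, 29 fell in siControl and 28 in siRFX7 and none rose, with medians of -0.41 and -0.42 and the lowest values for NDC1 (-0.69 ± 0.05 SE) and NUP35 (-0.65 ± 0.07) in the authors' deposited table for siControl. With siRFX7, 13 of the 30 rose and 2 fell under DMSO, and 8 rose and 3 fell under Nutlin-3a, among them NUP58 with 0.36 ± 0.04 (SE) and 0.34 ± 0.05 in the authors' deposited tables. Of 15 other genes of the inner nuclear membrane and of the LINC complex, which couples the nucleus to the cytoskeleton, 9 fell, 2 rose and 4 were not called with Nutlin-3a in siControl, with a median of -0.21. The inner membrane gene NEMP1 fell by 0.78 ± 0.05 (SE) and the LINC gene SUN2 by 0.61 ± 0.04 in the authors' deposited table for siControl. With siRFX7, 9 of these 15 rose and 1 fell under DMSO, and 6 rose and none fell under Nutlin-3a (medians 0.16 and 0.12). SYNE1, which encodes the LINC protein nesprin-1, rose by 0.75 ± 0.06 (SE) and 0.97 ± 0.06, SYNE3 by 0.73 ± 0.11 and 0.64 ± 0.10 and SUN2 by 0.52 ± 0.04 and 0.46 ± 0.05 in the authors' deposited tables.

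Of 8 genes whose products process lamins or regulate BAF, 4 fell and 1 rose with Nutlin-3a in siControl, and 5 fell and 1 rose in siRFX7. VRK1, the kinase that releases BAF from DNA, fell by 0.76 ± 0.08 (SE) and ICMT, the methyltransferase of the lamin tail, by 0.51 ± 0.04 in the authors' deposited table for siControl. FNTB, a subunit of the farnesyltransferase, fell with Nutlin-3a by 0.51 ± 0.05 (SE) and rose with siRFX7 under DMSO by 0.41 ± 0.05 in the authors' deposited tables. With siRFX7, 3 rose and 2 fell under DMSO, and 1 rose and 1 fell under Nutlin-3a. Of 14 genes of heterochromatin and histone chaperones, 12 fell in siControl and 11 in siRFX7 with Nutlin-3a and none rose (medians -0.32 and -0.36). SUV39H1, which writes the H3K9 methyl mark, fell by 0.96 ± 0.05 (SE) and 1.19 ± 0.05, and the histone chaperone gene ASF1B by 0.93 ± 0.05 and 1.05 ± 0.07, in the authors' deposited tables. With siRFX7, 3 of the 14 rose and 3 fell under DMSO, and 1 rose and 4 fell under Nutlin-3a.

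The other HMG genes did not share one pattern. Of 11 listed in the tables, 6 fell and 1 rose with Nutlin-3a in siControl, with the FACT subunit gene SSRP1 lowest at -0.47 ± 0.03 (SE) in the authors' deposited table, so none fell as far as HMGB2. With siRFX7, 2 rose and 7 fell under each treatment, and the medians were -0.26 and -0.22. Those that rose were the HMGA genes. HMGA2, a chromatin architectural gene of embryonic and tumour cells, rose by 1.14 ± 0.04 (SE, adjusted p 4.48e-152) and 1.01 ± 0.05 (SE, adjusted p 3.15e-78), and HMGA1 by 0.45 ± 0.06 and 0.36 ± 0.05, in the authors' deposited tables. The nucleosome-binding genes HMGN3 (-0.61 ± 0.07 SE and -0.52 ± 0.07) and HMGN1 (-0.40 ± 0.06 and -0.34 ± 0.06) had the lowest values in the authors' deposited tables.

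**Figure D5:**
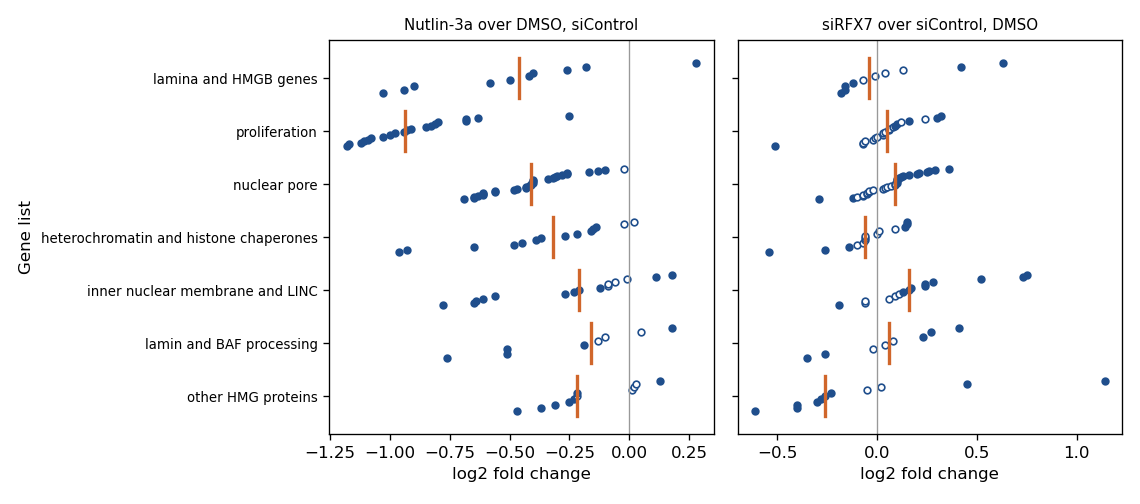
Log2 fold changes (x axis) of the 10 lamina and HMGB genes and of 6 gene lists (y axis), with Nutlin-3a over DMSO in siControl on the left and siRFX7 over siControl under DMSO on the right; each circle is a gene, filled where its adjusted p was under 0.05, and orange bars are list medians. On the left every list median is below 0, from -0.94 for proliferation to -0.16 for lamin and BAF processing; on the right the medians lie between -0.26 and 0.16, with HMGA2 farthest right at 1.14.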

How the data were processed

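Poly(A) RNA of 16 U2OS samples in 4 groups of 4 was sequenced from stranded libraries, per the labels' protocols, and each sample took its group from its title. Per the submitters' processing notes the tools were bcl2fastq 2.19.1.403, Trimmomatic 0.39, FastQC 0.11.9, cutadapt 2.10, SAMtools 1.10, Picard, featureCounts 1.6.5 and DESeq2 1.20.0, with hg38; the aligner, annotation and strand setting are not given in the sources used here. Only 4 tables of the authors' own comparisons were analysed. Per the file headers they hold the base mean, a signal that is the mean normalised count, and the authors' deposited log2 fold change, its standard error, the Wald statistic (a score) and the p-value and adjusted p-value. Dividing each deposited log2 fold change by its standard error returned the deposited score. Libraries' total counts are unknown, so depth enters through the authors' standard errors, and no count test was run.

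Directions (siRFX7 over siControl, Nutlin-3a over DMSO) were settled from the signs of RFX7, CDKN1A and MDM2 and from 19344 genes in all 4 tables, for which both routes to the difference of responses correlated at 0.99994. Genes were called at a deposited adjusted p under 0.05. The difference of responses took the root of the summed squared standard errors, a two-sided normal p and Benjamini-Hochberg adjustment over 21339 genes. Intervals (95%) are normal. Group levels were solved from base mean and fold change, and divided by merged GENCODE 29 exon length (GRCh38; 99.85% of gene identifiers matched). Promoters came from RefSeq (GRCh38.p14), 3′ UTRs from GENCODE 29. Python 3.11.15, pandas 2.3.3, numpy 2.4.6 and scipy 1.17.1 were used.

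The 10 genes, the lists and the words were chosen with earlier results of these data known. Named besides the 10 genes were RFX7, CDKN1A, MDM2, list genes called in the difference, up to 4 genes per list and comparison with a base mean of at least 100 and the largest called changes, relatives named after a member, and the 5 genes nearest to LMNB1 and to HMGB2. List markers, overlapping genes and list counts are given as description. Alternatives were an adjusted p of 0.01, a size of at least 0.25, adjustment over base means of at least 100, centring on the median, standard errors 25% larger, and the difference and levels from the siRFX7 tables.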

Additional observations from a re-analysis of the deposited data

Results flagged for a closer look

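None of the 10 lamina and HMGB genes responded differently to Nutlin-3a in siRFX7 than in siControl cells at an adjusted p under 0.05, but 12 genes of the lists read beside them did. Called were 7 of 20 cell cycle genes and 3 of 11 secretory genes. So were 1 of 3 cell cycle inhibitor genes and 1 of 8 genes of lamin and BAF processing. Of all genes 0.764% were called lower and 0.173% higher. Of genes with base means from 1000 up, 1.75% were lower and 0.381% higher. In all 12 the log2 response was lower in siRFX7, which says nothing of their level there. The secretory genes CXCL8 (-0.75 ± 0.16 SE), CCL2 (-0.64 ± 0.10) and MMP3 (-0.31 ± 0.08) were among them, as were the cell cycle genes CCNA2 (-0.31), CCNB1 (-0.32), CCNB2 (-0.22), PLK1 (-0.35), BIRC5 (-0.25), CDC20 (-0.33) and MCM2 (-0.20). CDKN1A differed by -0.26 ± 0.05 (SE), a smaller rise in siRFX7, while its level was higher with siRFX7 under both treatments, by 0.60 ± 0.04 (SE) under DMSO and 0.33 ± 0.04 with Nutlin-3a, per the authors' deposited tables. NARF, whose product binds prenylated prelamin A, differed by -0.25 ± 0.06 (SE, adjusted p 0.0197): it had a base mean of 1775 and fell by 0.19 ± 0.05 in siRFX7 in the authors' deposited table.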

How the results depend on the processing

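For the 10 genes, none of the 50 calls (4 comparisons and the difference of responses) reversed under any alternative, and all 50 were as reported with an adjusted p under 0.01 and with centring on the median, which shifted values by at most 0.03. A size of at least 0.25 ended 9 calls: genes called lower with siRFX7 went from 4 to 0 under DMSO and from 5 to 3 under Nutlin-3a, and the Nutlin-3a calls of EMD in siControl (-0.18) and siRFX7 (-0.17) and of BANF1 in siRFX7 (-0.21) were lost. Adjusting over base means from 100 up raised the count of lower responses in siRFX7 from 0 to 1 (LMNB1). Standard errors 25% larger ended 1 call (BANF1 with Nutlin-3a in siRFX7), and the route through the siRFX7 tables changed none of 10. Levels taken from the siRFX7 tables moved by -15.5 to 18.3%, nearly the same within a group, through the separate normalisation, so ratios between genes did not depend on it. No leave-one-out was run and no paired analysis was possible because the deposited tables hold no values of single libraries.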

Other observations

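Genes secreted by senescent cells did not move together with Nutlin-3a. Of 11 listed in the tables, 5 rose and 2 fell in siControl, and 5 rose and 4 fell in siRFX7. Of all genes, 18.3% rose and 19.6% fell in siControl, and 18.7% rose and 20.3% fell in siRFX7. The stress cytokine gene GDF15 rose by 3.83 ± 0.23 (SE), the alarm cytokine gene IL1A by 1.6 ± 0.17 and IGFBP7 by 1.05 ± 0.10 in the authors' deposited table for siControl. The chemokine gene CXCL8 fell: the authors' deposited tables gave -0.76 ± 0.11 (SE) for siControl and -1.51 ± 0.12 for siRFX7. IL1B, CXCL1, CXCL2 and IGFBP3 were not in the tables.

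Of 5 genes for receptors of extracellular HMGB1, TLR4 rose with Nutlin-3a: the authors' deposited tables gave 0.45 ± 0.08 (SE) for siControl and 0.42 ± 0.10 for siRFX7, at base means of 386.4 and 265.1. AGER, the gene of the receptor RAGE, had 0.23 ± 0.14 (SE, adjusted p 0.197) and 0.28 ± 0.14 (adjusted p 0.108) in the authors' deposited tables and did not pass. HAVCR2, at base means of 6.018 and 5.991, had -0.78 ± 0.60 (SE, adjusted p 0.339) and -0.74 ± 0.64 (adjusted p 0.404) in the authors' deposited tables and did not pass either, and TLR2 and CXCR4 were not in the tables.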
